A study of Mus musculus with 4 samples.

Results

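Cd8a, Cd8b1 and Smyd1 are neighbouring genes on mouse chromosome 6 and are 3 of the 22730 gene symbols in the transcript tables. They were picked by symbol, and with them 70 of the 1921627 listed exon-exon junctions. RNA came from total thymocytes, the developing T cells of the thymus, of 2 hnRNP L KO mice and 2 wild-type (WT) mice, with 1 library per mouse. Hnrnpl encodes hnRNP L, which binds pre-mRNA and takes part in the choice of exons. KO and WT mice carry the same mixed genetic background in the labels: CD45.1, LckCre transgenic, C57BL/6 and, as a reporter allele, Gt(ROSA)26Sortm4(ACTB-tdTomato,-EGFP)Luo. LckCre drives the Cre recombinase from the Lck promoter, which is active in T cell precursors. The sources used here do not give which exons were deleted or the ages.

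CD8 is the coreceptor that binds MHC class I beside the T cell receptor. Cd8a encodes its alpha chain, whose cytoplasmic tail binds the kinase Lck, and Cd8b1 encodes its beta chain, which reaches the cell surface paired with the alpha chain. Most thymocytes are at the double-positive stage, at which both CD4 and CD8 are made, and CD8 is kept afterwards in cells that become cytotoxic T cells. Smyd1 encodes a SET and MYND domain protein known for its role in heart and skeletal muscle, and its older symbol, Bop, comes from its place opposite the CD8 beta gene.

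The genes were chosen with results of the KO and WT comparison known, so their values in it are given as a description with no test. Smyd1 was chosen because it had the 4th smallest p of 13733 genes tested for expression. In that fit only 1 gene passed an adjusted p of 0.05, and it was not Smyd1. Cd8b1 was chosen because its junction from exon 1 to exon 3 was 1 of 4 junctions, of 95139 tested, that passed an adjusted p of 0.05. Cd8a was chosen as the neighbour of both. In the order of p over all genes Cd8b1 stood at place 6080 and Cd8a at place 13593.

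The sequences around the Cd8b1 splice that chose the gene are shown first, since they show what the rare transcript contains. They are read from the GENCODE M21 (GRCm38) transcript of Cd8b1, whose 4 internal exons and 5 introns have the same lengths as in the deposited mm9 junctions. Capitals mark bases of exon 2.
Cd8b1 exon 1 to exon 2: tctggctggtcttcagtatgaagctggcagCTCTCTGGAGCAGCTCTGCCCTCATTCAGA
Cd8b1 exon 2 to exon 3: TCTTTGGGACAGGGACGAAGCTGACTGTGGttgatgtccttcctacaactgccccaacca
Cd8b1 exon 1 to exon 3: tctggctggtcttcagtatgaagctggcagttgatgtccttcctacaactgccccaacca

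Exon 2 of Cd8b1 (mm9 chr6:71275980-71276342, plus strand) is 363 nt long and encodes the immunoglobulin variable-like domain of the beta chain, the outer part that contacts MHC class I. Leaving it out keeps the reading frame: the coding sequence shortens to 92 codons, against 213 codons in the full transcript.

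hnRNP L is known to bind CA-rich RNA. The letters CACA were searched on the transcribed strand and were found 0 times in this exon, while 82.8% of 454 coding exons within 10 nt of its length hold them, with a median of 2 occurrences. The introns beside it were not used here.

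Mapped reads numbered 69061265 and 75485061 in KO replicates 1 and 2, and 99782558 and 122619310 in WT replicates 1 and 2. Hnrnpl had 467 and 208 CPM (reads scaled to a common library size, here with TMM factors) in KO replicates 1 and 2, against 854 and 813 CPM in the WT libraries. That is 56.0% and 25.0% of the WT mean in KO replicates 1 and 2. Reads of the targeted gene were thus lower in both KO libraries, and more so in KO replicate 2, but were not absent from either. They were counted over the whole transcript and the deleted exons are not given, so they do not measure intact Hnrnpl. The Y-linked gene Ddx3y had 4116 and 1 reads in KO replicates 1 and 2, against 17 and 1 in WT replicates 1 and 2. Xist, which is made in female cells, had 222 and 87390 reads in KO and 57852 and 85249 in WT, so that by these reads KO replicate 1 was a male and the other 3 mice were females. Small RNA genes and their hosts took 6.40% of the gene reads of WT replicate 1 and 0.739 to 1.56% of those of the other libraries. Thymocyte markers had reads in all 4 libraries at unlike levels. They ran from Ptcra at 43.4 to 65.0 CPM up to Rag1, a subunit of the V(D)J recombinase, at 5529 to 7811 CPM.

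Cd8b1 (NM_009858, mm9 chr6:71272806-71287445) stood at place 41 and 42 of all 22730 genes by level per transcript length in KO, and at 82 and 44 in WT. It had 385 and 262 RPKM (reads scaled by transcript length and by the mapped reads of the library) in KO replicates 1 and 2, against 372 and 383 RPKM in WT replicates 1 and 2. KO replicate 1 lay on or just above the WT level, and KO replicate 2 lay below the other 3 libraries, so the groups overlap. The mean was 323 ± 86.6 RPKM in KO and 377 ± 7.51 RPKM in WT (SD, n = 2 each). The fitted log2 fold change was -0.23 (SE 0.21). Leaving out KO replicate 1 gave -0.56, and leaving out KO replicate 2 gave 0.04. In RNA from whole thymocyte suspensions, fewer cells that carry the transcript and less of it per cell cannot be told apart.

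Cd8a (NM_001081110, mm9 chr6:71323421-71329165) had overlapping levels in the groups. It had 265 and 231 RPKM in KO replicates 1 and 2, against 232 and 263 RPKM in WT replicates 1 and 2. The mean was 248 ± 23.98 RPKM in KO and 247 ± 21.9 RPKM in WT (SD, n = 2 each), with a log2 fold change of 0.0031 (SE 0.16). Per transcript length, Cd8b1 exceeded Cd8a in every library, by a ratio of RPKM values of 1.45 and 1.13 in KO and 1.61 and 1.46 in WT. The ratio was lowest in KO replicate 2, the library with the lower Cd8b1 level.

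**Figure D1:**
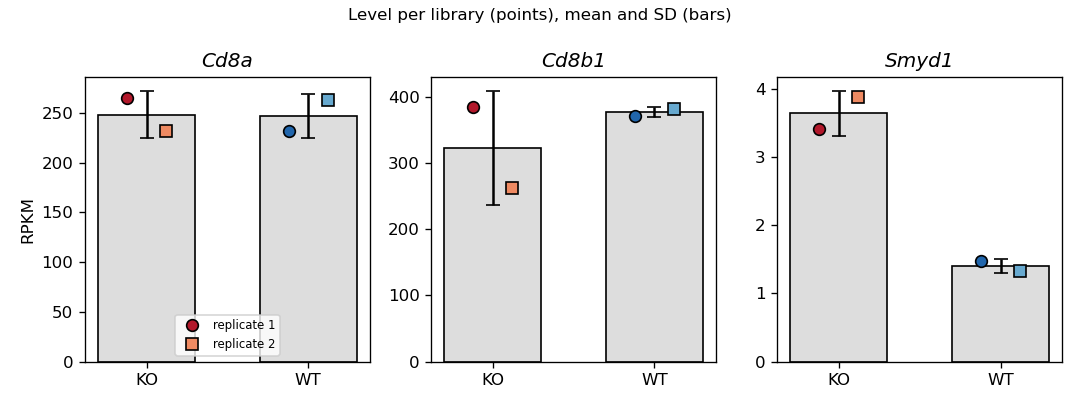
Level of Cd8a, Cd8b1 and Smyd1 in RPKM, with KO left and WT right, a point per library, and bars for the mean with its SD (n = 2). The groups overlap for Cd8a and Cd8b1, and for Smyd1 both KO libraries (3.41 and 3.87 RPKM) lie above both WT libraries (1.48 and 1.33 RPKM).

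Of the 15 junctions listed for Cd8b1, the 5 known ones join its 6 exons in order and 10 are putative ones that skip exons. All 5 known junctions and 4 of the putative ones had reads. The junction from exon 1 to exon 3 had 14 and 73 reads in KO replicates 1 and 2, against 6 and 6 reads in WT replicates 1 and 2. Both KO libraries thus exceeded both WT libraries although they were sequenced less deeply, and most of the KO reads came from KO replicate 2. The known junctions that flank exon 2 had 671 and 521 reads upstream in KO and 1865 and 1348 in WT, and 1384 and 1067 reads downstream in KO and 2124 and 2623 in WT.

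Skipping of exon 2, taken as skipping reads over those reads plus the mean of the flanking junctions, made up 1.34% of Cd8b1 transcripts in KO replicate 1 (exact 95% interval 0.737 to 2.25%) and 8.42% in KO replicate 2 (6.66 to 10.5%). In WT replicates 1 and 2 it made up 0.2999% (0.110 to 0.652%) and 0.301% (0.111 to 0.655%). The means were 4.88 ± 5.003% in KO and 0.301 ± 9.58e-04% in WT (SD, n = 2 each). The difference of 4.58 points was smaller than the SD between the KO libraries, and it was 8.12 points without KO replicate 1 and 1.04 points without KO replicate 2. The KO library with the lower Hnrnpl CPM was the one with more skipping and with less Cd8b1 in all, which is an order over 2 KO libraries only. These 2 KO mice also differed in sex by their Ddx3y and Xist reads, and the differences cannot be told apart. The intervals cover counting error alone, since PCR copies are not independent molecules.

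The size of the share depended on which side of exon 2 was counted, while both KO libraries stood above both WT libraries on either side. Both sides use the same skipping reads, from the junction that chose the gene, so they are not independent of each other. How many of all junctions show this order was not counted. Against the upstream junction alone it was 2.04% and 12.3% in KO and 0.321% and 0.443% in WT. Against the downstream junction alone it was 1.00% and 6.40% in KO and 0.282% and 0.228% in WT. The fitted log2 change in usage of the skipping junction relative to the other Cd8b1 junctions was 3.75. Over all junctions tested, 0.0042% passed the adjusted p threshold, and since the junction chose the gene nothing is read from that here.

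Cd8b1 exon 4 (mm9 chr6:71282430-71282519, 90 nt), whose region of the gene encodes the membrane span, was also skipped at a low rate, and this did not follow the genotype. The junction from exon 3 to exon 5 had 22 and 18 reads in KO replicates 1 and 2, and 31 and 84 in WT replicates 1 and 2. The share was 1.502% and 1.51% in KO, against 1.34% and 3.08% in WT, so that WT replicate 2 stood above the other 3 libraries. This skip keeps the frame and leaves 183 codons.

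The junction from exon 3 to exon 6, which leaves out exons 4 and 5 together, had 0 and 0 reads in KO replicates 1 and 2, and 8 and 13 reads in WT replicates 1 and 2. A count of 0 allows up to 3 reads, or 0.177% and 0.224% of transcripts in KO, against shares of 0.296% (exact 95% interval 0.128 to 0.583%) and 0.432% (0.230 to 0.738%) in WT. The KO counts lie below both WT counts. The fitted log2 change in usage of this junction relative to the other Cd8b1 junctions was -5.78, from counts of 0 in KO. The exact 95% intervals of the KO shares reach up to 0.218% and 0.276%, so they overlap those of WT except for KO replicate 1 with WT replicate 2. The 127 nt it removes shift the frame. The junction from exon 4 to exon 6 had 0 and 3 reads in KO and 2 and 1 reads in WT.

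**Figure D2:**
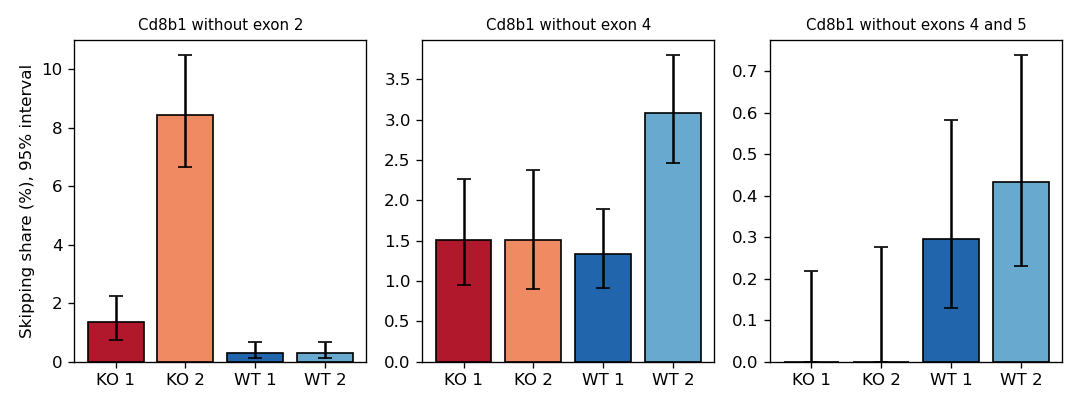
Share of Cd8b1 transcripts (%) that skip exon 2, exon 4, or exons 4 and 5, per library (KO replicates left, WT replicates right), with exact 95% intervals and a separate axis for each panel. Skipping of exon 2 reached 8.42% in KO replicate 2, and skipping of exon 4 was highest in WT replicate 2.

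Cd8a has a known pair of splice forms. Its exon 4 (mm9 chr6:71325882-71325912) is 31 nt long, and leaving it out gives the alpha-prime chain, which is known to lack most of the cytoplasmic tail and with it the Lck-binding part. The end of the coding sequence is printed for each form from the GENCODE M21 transcript of Cd8a, starting with the last 30 bases of exon 3, with the stop codon in capitals.
Cd8a exons 3, 4 and 5: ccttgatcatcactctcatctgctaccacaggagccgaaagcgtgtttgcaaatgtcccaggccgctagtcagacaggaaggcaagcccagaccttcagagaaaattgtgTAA
Cd8a exons 3 and 5: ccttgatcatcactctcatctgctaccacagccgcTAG
With exon 4 the reading frame runs for 27 codons beyond exon 3, and without it for 2 codons, so the forms end at 247 and 222 codons.

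Both forms were common in every library. The junction from exon 3 to exon 5, which skips exon 4, had 678 and 645 reads in KO replicates 1 and 2, and 848 and 1280 reads in WT replicates 1 and 2. The form without exon 4 made up 52.2% (exact 95% interval 49.4 to 54.9%) and 53.6% (50.7 to 56.4%) in KO, against 52.6% (50.1 to 55.03%) and 55.6% (53.5 to 57.6%) in WT. The libraries of the groups overlap, and the means of 52.9 ± 0.974% in KO and 54.1 ± 2.15% in WT (SD, n = 2 each) differ by -1.20 points, within the spread between the WT libraries.

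The junctions on either side of exon 4 were not read equally, which moves the level of this share in every library. Exon 3 to exon 4 had 403 and 370 reads in KO and 428 and 719 in WT, while exon 4 to exon 5 had 839 and 748 in KO and 1103 and 1325 in WT. Against the upstream junction alone the form without exon 4 took 62.7% and 63.5% in KO and 66.5% and 64.03% in WT. Against the downstream junction alone it took 44.7% and 46.3% in KO and 43.5% and 49.1% in WT. The 3 putative Cd8a junctions with any reads, which skip exon 2, exons 2 and 3, or exons 3 and 4, had at most 1 read in any library.

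**Figure D3:**
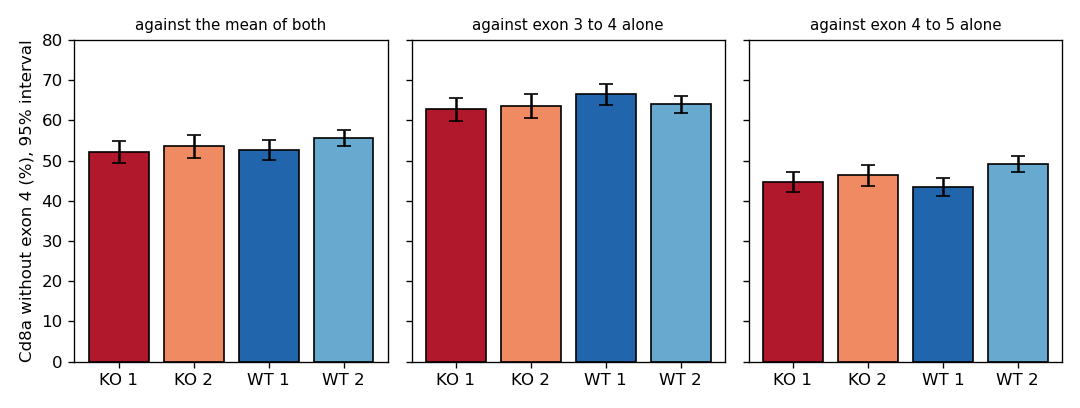
Share of Cd8a transcripts without exon 4 (%), per library with KO left and WT right, against the mean of both flanking junctions, the upstream junction alone and the downstream junction alone, with exact 95% intervals. In each panel the KO and WT libraries lie within a few points of each other, and the panels differ in level.

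Smyd1 (NM_001160127, mm9 chr6:71163934-71212275, minus strand) was higher in both KO libraries, at a level far below that of the CD8 genes. It had 3.41 and 3.87 RPKM in KO replicates 1 and 2, against 1.48 and 1.33 RPKM in WT replicates 1 and 2. The reads behind these values were 791 and 983 in KO, and 496 and 550 in WT. The groups do not overlap, as is the case, with KO above WT, for 23.3% of all genes tested. The mean was 3.64 ± 0.330 RPKM in KO and 1.41 ± 0.102 RPKM in WT (SD, n = 2 each). The log2 fold change fitted by edgeR to the TMM-scaled counts was 1.36 (SE 0.16), or 2.57-fold. The log2 fold change stayed between 1.25 and 1.49 with any 1 library left out.

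Reads that span known Smyd1 junctions come from the same libraries whose gene counts chose Smyd1, and they are few. They numbered 67 and 70 in KO, and 45 and 34 in WT. Scaled to the library, these are 20.5 and 20.1 CPM of known-junction reads in KO, against 9.57 and 5.60 in WT. Among the 10 known junctions, exon 8 to exon 9 had the most reads over the 4 libraries, 16 and 27 in KO and 14 and 8 in WT.

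The junction of the first exon that RefSeq gives Smyd1 was not detected. This known junction from exon 1 to exon 2 had 0 reads in all 4 libraries, where a count of 0 allows up to 3 reads per library. The next one, exon 2 to exon 3, had 11 and 4 reads in KO and 4 and 4 in WT, and the other 9 known junctions had 216 reads in all. The median of those 9 junctions was 6 and 6 reads in KO and 4 and 3 reads in WT. Counts of 0 also occurred inside the transcript, as at exon 7 to exon 8, with 4 and 1 reads in KO and 0 and 0 in WT. The 1 read that used the end of exon 1 was on a putative junction to exon 9, in WT replicate 1.

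GENCODE M21 (build GRCm38) lists another first exon of Smyd1, which is 319 nt long and starts 555 bp from the start of Cd8b1, on the opposite strand. It is spliced to the same exon 2 across an intron of 82188 nt, while the RefSeq first exon starts 60507 bp from the start of Cd8b1 and has an intron of 22341 nt. The junction of this other exon is not among those listed for Smyd1, so its use was not analysed here. The ends of both first exons are printed with the start of exon 2 in capitals, from the GENCODE M21 transcripts.
Smyd1 RefSeq exon 1 to exon 2: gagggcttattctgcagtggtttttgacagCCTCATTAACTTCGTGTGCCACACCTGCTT
Smyd1 other exon 1 to exon 2: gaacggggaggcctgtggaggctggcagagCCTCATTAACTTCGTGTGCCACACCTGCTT

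Exon 5 of Smyd1 (mm9 chr6:71185337-71185375) has 39 nt, which keeps the frame, and is left out of the shorter RefSeq form. The junction that skips it had 6 and 6 reads in KO and 2 and 1 in WT. The junctions that include it had 3 and 2 reads upstream and 3 and 2 downstream in KO, against 0 and 1 upstream and 1 and 0 downstream in WT. Both forms were thus present, at counts too low for a comparison of their shares.

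**Figure D4:**
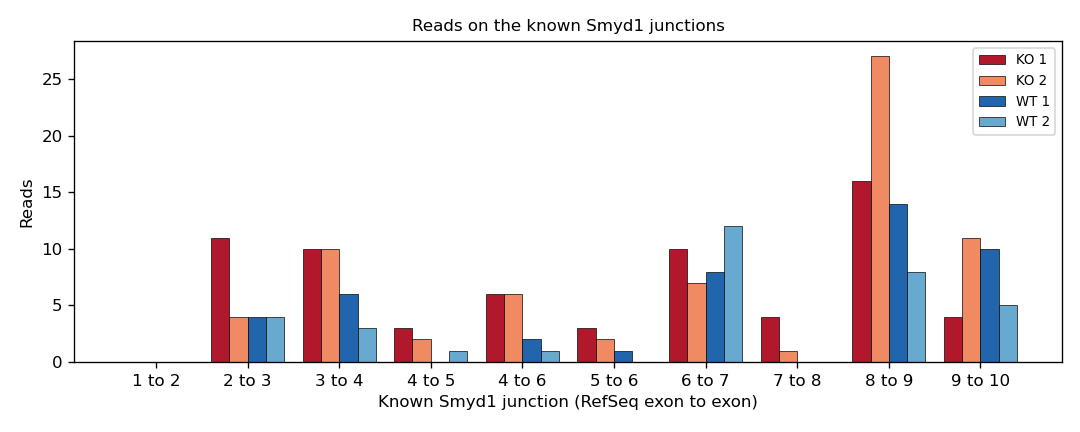
Reads on each known Smyd1 junction, named by RefSeq exons along the transcript, per library (KO replicates left of WT replicates). The junction from exon 1 to exon 2 had 0 reads in all 4 libraries, and exon 8 to exon 9 had the most over all libraries.

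Genes that mark muscle and dendritic cells were set beside Smyd1. The 31 muscle genes summed to 54.2 and 59.6 CPM in KO and 44.1 and 47.5 CPM in WT, with 7 and 5 of them at 0 reads in KO and 3 and 3 in WT. Ckm, the muscle creatine kinase, had 0.109 and 0.194 CPM in KO and 0.205 and 0.235 in WT. Myod1, a muscle transcription factor, had 0 reads in both KO libraries and 1 and 3 reads in WT. The KO libraries were sequenced less deeply than the WT libraries, so nothing is read from these counts of 0. Of the 11 muscle genes tested 5 had a positive and 6 a negative fold change, with a median of -0.03, and the members with the smallest p were Ttn (0.51, SE 0.14), Tnni1 (-1.28, SE 0.48), Tnni3 (1.12, SE 0.46) and Mylpf (0.39, SE 0.17).

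The 10 dendritic cell genes, of the dendritic cells that carry CD8 alpha, summed to 138 and 164 CPM in KO and 109 and 115 CPM in WT, with 0 of them at 0 reads in any library. Of these 9 had a positive fold change, with a median of 0.36, and 0 passed. The smallest p values were those of Wdfy4 (0.40, SE 0.13), Ly75 (0.56, SE 0.20), Naaa (0.50, SE 0.24) and the integrin Itgax (0.42, SE 0.21). The part of these cells in the Smyd1 or Cd8a values was not tested.

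The next question was whether genes around the locus moved with Smyd1. Within 500 kb of the span from Smyd1 to Cd8a lie 14 other genes, of which 11 passed the filter on low counts. By edgeR 0 of these passed an adjusted p of 0.05 (smallest 0.551), and 0 had an unadjusted p under 0.05. Over all genes tested, edgeR called 0.00728% at the adjusted threshold, Smyd1 not among them, and 9.9% at the unadjusted one. DESeq2 and limma-voom also called 0 of the neighbours, against 0.871% and 0% of all genes to which they gave an adjusted p. At shares this low 0 calls among 11 genes says little, so nothing is read from the adjusted calls in these neighbours.

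Their log2 fold changes ran from -0.32 to 0.30, with a median of -0.06. Krcc1 lies between Smyd1 and Cd8b1 and had 89.6 and 94.9 CPM in KO and 74.7 and 85.5 CPM in WT (0.20, SE 0.12). Rmnd5a, a subunit of a ubiquitin ligase and the next gene after Cd8a, had 2488 and 1776 CPM in KO and 2517 and 2587 CPM in WT (-0.26, SE 0.19). Like Cd8b1 it was lower in KO replicate 2 than in the other 3 libraries. The same order by CPM held for Cd8a and for the neighbours Kdm3a, Vps24, Rnf103 and Thnsl2, and not for the remaining tested neighbours. The share of all genes tested with this order was not counted, so no shared pattern of the locus is read from it. Kdm3a, a histone demethylase, had 341 and 288 CPM in KO and 349 and 370 CPM in WT (-0.19, SE 0.14).

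Of the other neighbours, Thnsl2 (-0.32, SE 0.25), Vps24 (-0.22, SE 0.15), Rnf103 (-0.18, SE 0.15) and Rpia, an enzyme of the pentose phosphate pathway (-0.06, SE 0.14), had negative values. Mrpl35, of the mitochondrial ribosome (0.30, SE 0.16), Reep1 (0.25, SE 0.19), the kinase gene Eif2ak3 (0.17, SE 0.11) and Immt, of the mitochondrial inner membrane (0.06, SE 0.11), had positive ones. Both KO libraries lay above both WT libraries for 5 of the 11 and below for 3, against 23.3% and 21.4% of all genes tested. The remaining 3, Fabp1, Foxi3 and 1700011F03Rik, had at most 4 reads in any library.

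**Figure D5:**
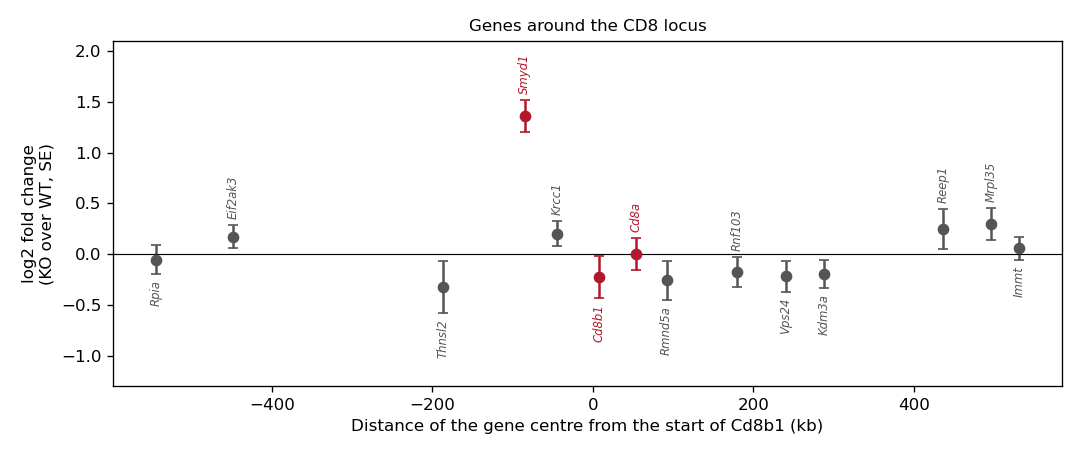
Log2 fold change (KO over WT, with its SE) of the 11 tested neighbours (grey) and of Cd8a, Cd8b1 and Smyd1 (red), against the distance of the gene's centre from the start of Cd8b1 in kb. Smyd1 stands at 1.36 and all other genes between -0.32 and 0.30.

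The genes that work with CD8 were read from lists. Of 158 genes in 12 lists, 133 were tested and 0 passed edgeR's adjusted p of 0.05 (smallest 0.378), while 13 (9.77%) had an unadjusted p under 0.05, against 9.9% of all genes tested. DESeq2 called 2, Cd3e and Rag2, against 0.871% of all genes to which it gave an adjusted p. By limma-voom 0 passed, as over all genes tested. The median log2 fold change of all genes tested was 0.0080.

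The list of the coreceptor and T cell receptor complex, with 12 genes, had 3 positive and 9 negative values and a median of -0.16. Cd3e, which encodes the CD3 epsilon chain, had 226 and 357 CPM in KO and 120 and 178 CPM in WT (0.97, SE 0.29). Cd247 had -0.47 (SE 0.20), Cd3d -0.30 (SE 0.15) and the kinase Zap70 -0.25 (SE 0.14). Cd4, the other coreceptor, had 1038 and 660 CPM in KO and 774 and 886 CPM in WT, and Lck, the kinase bound by both coreceptors, 1540 and 1264 CPM in KO and 1701 and 1634 CPM in WT.

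The 9 genes of the CD8 ligands, MHC class I and its loading, had 2 positive and 7 negative values and a median of -0.04. H2-K1 had 271 and 161 CPM in KO and 347 and 310 CPM in WT (-0.61, SE 0.25). H2-D1 had -0.40 (SE 0.19), the peptide transporter Tap1 -0.12 (SE 0.12) and the loading factor Tapbp 0.25 (SE 0.11).

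Regulators of the CD8 locus, 22 genes, had 13 positive and 9 negative values and a median of 0.05. Patz1, a repressor of Cd8 genes also called MAZR, had 214 and 189 CPM in KO and 277 and 281 CPM in WT (-0.47, SE 0.12). Runx3, the transcription factor of CD8 T cells, had 16.4 and 15.4 CPM in KO and 11.5 and 12.7 CPM in WT (0.40, SE 0.15). Its partner Cbfb had 0.22 (SE 0.12) and Gata3, a factor of the CD4 lineage, 0.24 (SE 0.12).

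Of the CD8 lineage and cytotoxic genes 17 of 18 were tested, with 10 positive and 7 negative values and a median of 0.13. Klrd1, an NK receptor chain, had 0.78 (SE 0.33), the chemokines Ccl5 and Xcl1 had 0.58 (SE 0.28) and -0.55 (SE 0.32), and Gzma, granzyme A, had 0.29 (SE 0.17). The 8 CD4 lineage genes split into 4 positive and 4 negative with a median of -0.06, among them the costimulator Icos at -0.55 (SE 0.24), Tnfrsf18 at -0.44 (SE 0.22), Ikzf2 at 0.19 (SE 0.13) and Tnfrsf4 at -0.15 (SE 0.20).

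The other members of the SMYD family and the partners of Smyd1, 9 tested of 10, had 3 positive and 6 negative values and a median of -0.02. Naca, whose muscle form binds Smyd1, had 0.19 (SE 0.18), the histone deacetylases Hdac1 and Hdac2 had -0.20 (SE 0.12) and -0.12 (SE 0.12), and Smyd4 -0.14 (SE 0.15).

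Stage and cell type lists give the setting of these values. Of 11 tested double-positive genes 4 were positive and 7 negative (median -0.12), with Rag2 at 491 and 570 CPM in KO and 340 and 335 CPM in WT (0.65, SE 0.14), the aquaporin Aqp11 at -0.36 (SE 0.12) and Themis at -0.18 (SE 0.17). The sum of that list was 13562 and 10631 CPM in KO and 13676 and 13025 CPM in WT, lowest in KO replicate 2, as was Cd8b1.

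Of 12 mature single-positive genes 2 were positive and 10 negative (median -0.29). Their sum was 1539 and 963 CPM in KO and 1460 and 1448 CPM in WT, again lowest in KO replicate 2, and the part of either stage in the Cd8b1 level was not tested. The members with the smallest p were Cd69 (-0.44, SE 0.36), the receptor Il7r (0.17, SE 0.15), Gimap6 (-0.28, SE 0.25) and Ms4a4b (-0.48, SE 0.43).

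The 7 B cell genes had 2 positive and 5 negative values (median -0.04, sums 45.3 and 38.0 CPM in KO, 40.2 and 42.0 in WT), with Cd22 at 0.41 (SE 0.31). The 5 erythroid genes found in the files had 4 positive values and 1 negative (median 0.93, sums 287 and 60.0 CPM in KO, 87.0 and 78.2 in WT), high in KO replicate 1 through Hbb-b1 and Alas2. Slc4a1, the anion exchanger of red cells, had 0.93 (SE 0.38).

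Genes whose pattern over the 4 libraries was most like that of each member were found by the root-mean-square difference of log2 CPM centred on each gene's mean, over 10213 genes. For Cd8b1 the closest was Cd5, a surface regulator of T cell receptor signalling, at a difference of 0.0061, with 185 and 122 CPM in KO and 184 and 176 CPM in WT, and Cat, Trim12a and Siah1a lay at up to 0.021. For Cd8a the closest were Yeats4, Cbl, Rpl37a, Agfg2 and 2810001G20Rik, at 0.0058 to 0.0098. For Smyd1 the likeness was looser: Agpat9, Syt11, Sdk1, Fhl4 and Cyp4f13 lay at 0.12 to 0.18. Smyd1 was chosen for its difference between KO and WT in these same libraries, so nothing is read from the looser likeness.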

How the data were processed

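The authors deposited raw read counts per RefSeq transcript with RPKM values and reads per nt, a signal per base, for each library, and raw read counts per exon-exon junction. Per the file headers, only primary alignments were counted, from a mapping quality of 10 upward. Per the submitters' processing notes the build is mm9. The aligner is not given in the sources used here, nor is strand handling, so reads of overlapping antisense genes may be mixed. RPKM and signal values matched the counts. RPKM served for levels per length, counts for tests.

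From the 28283 rows the transcript with the highest total was kept for each symbol. Genes were fitted with edgeR 4.0.16 in R 4.3.3 (robust quasi-likelihood, TMM scaling, filter by group, Benjamini-Hochberg adjustment). Junction usage was fitted with diffSpliceDGE, for junctions that summed to 10 or more reads in genes holding 2 or more of them, whose natural-log coefficients were turned into log2. Both fits were run on simulated counts with known changes. For junctions the changes were placed only where reads exceeded those of the Cd8b1 skip. Counts as low as those of that skip were thus not covered. Alternatives used DESeq2 1.42.0 and limma 3.58.1. Skipping intervals are exact Clopper-Pearson at 95%, with the mean of the flanking junctions rounded down. Exons are numbered along the listed junctions and were matched to GENCODE M21 by lengths.

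The 3 genes, the lists, the neighbours within 500 kb and the rule for named genes (up to 4 genes of smallest p per list, 5 most alike per gene with a mean log2 CPM above 2) were chosen with earlier results of these data known. The mice are separate animals, 2 per group. Of the erythroid list 5 of 7 symbols were found. Some genes that the rule names are not reported here.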

Additional observations from a re-analysis of the deposited data

How the results depend on the processing

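The fold changes of Cd8a, Cd8b1 and Smyd1 moved by less than 1 SD of the replicates under every other scaling, filter, tool and transcript choice, and for known junction reads. With 1 library left out they ranged from -0.13 to 0.11 for Cd8a, from -0.56 to 0.038 for Cd8b1 and from 1.25 to 1.49 for Smyd1. The exon 2 share of Cd8b1 differed by 1.04 to 8.12 points, and that of Cd8a exon 4 by -2.72 to 0.33 points. The alternatives for Cd8a exon 4 and the limma-voom fold changes were chosen after seeing the data.

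Counts of calls depended on the setting, and the cause was not tested. With 1 library left out, 1 group holds only 1 mouse, so nothing is read from the counts of calls in those fits. Calls in the lists were not compared there with calls over all genes. Over all genes edgeR called 1, against 108 by DESeq2, 0 by limma-voom, 0 under upper-quartile scaling and 62 with no filter on low counts. With 1 library left out it called 2 to 389. Of the lists DESeq2 called 2 genes, and leaving out 1 library gave 0 to 14, the 14 without KO replicate 1 and 2, Alas2 and Hbb-b1, without KO replicate 2. Junction calls, 4 in the main setting, were 2 with known junctions alone, where the Cd8b1 skip is not present, 1 with limma-voom (in Diap1, not Cd8b1), and 3 to 12 with 1 library left out. The Cd8b1 junction was called without KO replicate 1 and not called without KO replicate 2, WT replicate 1 or WT replicate 2.

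Same-numbered mice share only a number in the labels. Their deviations from the group mean correlated at 0.259 across genes. With 2 mice per group these deviations mirror each other, so KO replicate 1 with WT replicate 2 gave -0.259. No pairing is read from this value. With the replicate number as a block, edgeR called 116 genes over all, 1 gene of the lists (Cd3e) and 10 junctions, that of Cd8b1 among them, and the fold changes were -0.0009 for Cd8a, -0.26 for Cd8b1 and 1.36 for Smyd1. With few reads, depth limits the Smyd1 junctions and the skips of Cd8b1 exons 4 and 5.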
